A study of Rattus norvegicus with 43 samples.

Results

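The livers of rats given Targretin were compared with the livers of rats given 9-cis retinoic acid (9cRA). The comparison uses every sample that the titles place in these groups, 3 Targretin livers and 4 9cRA livers, which are 7 of the 43 samples of the series, and every probe set on the array that is not a control. Targretin (bexarotene) is a synthetic ligand of the retinoid X receptors (RXR), and 9cRA binds both RXR and the retinoic acid receptors (RAR). The comparison addresses which liver transcripts separate a ligand of RXR from a ligand of RXR and RAR.

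All animals were female Sprague-Dawley rats, which are outbred, and no engineered allele is named in the labels. Treatment started at 100 days of age and lasted 7 days. Targretin was dosed by stomach tube (gavage), 60 mg per kg of body weight, and 9cRA was mixed into the feed at 100 mg per kg of diet. A group of 4 livers from rats on diet alone gives the untreated level, and 4 livers of rats on 4-hydroxyphenylretinamide (4HPR, 782 mg per kg of diet) enter the fit but not the comparisons. Dose and route differed between the 2 agents and no gavage control is named, so the compound, its dose and its route cannot be told apart in any difference below. Each sample was 1 Affymetrix rat array; the labels do not say that the arrays of a group are separate animals, so the p-values measure only the spread between these samples, and the number of arrays limits the precision.

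RXR binds DNA mostly as the partner of another nuclear receptor. Its partners include RAR, the fatty acid sensors of the PPAR family, the oxysterol sensor LXR, the bile acid sensor FXR, the drug sensors CAR and PXR, the thyroid hormone receptors and the vitamin D receptor. In liver, PPAR alpha governs the burning of fatty acids, LXR the making of fatty acids, FXR the handling of bile acids, and CAR and PXR the clearance of foreign compounds.

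The values are signals on a linear scale, and a difference is Targretin minus 9cRA in log2 units after 38.1, the 10th percentile of all signals, was added to each signal; ± gives the standard error of a difference. Limma with Benjamini-Hochberg adjustment was run on 6084 probe sets, and 348 (5.72%) had an adjusted p under 0.05, which counts as passing. Of these, 174 (2.86%) were higher with Targretin and 174 (2.86%) were lower, in 119 and 110 genes, and 56 of the 348 carried no gene symbol or several. The signals of the 3 Targretin and 4 9cRA arrays did not overlap in 337 of the 348. Since the 348 were picked by their difference on these same arrays, this is not separate support. The share without overlap over all 6084 probe sets was not counted. The sizes were uneven: 120 probe sets were higher by at least 2-fold against 83 lower, 44 against 10 by at least 4-fold, and 18 against 0 by at least 8-fold. Without Targretin array 2 the counts were 125 higher and 112 lower.

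**Figure D1:**
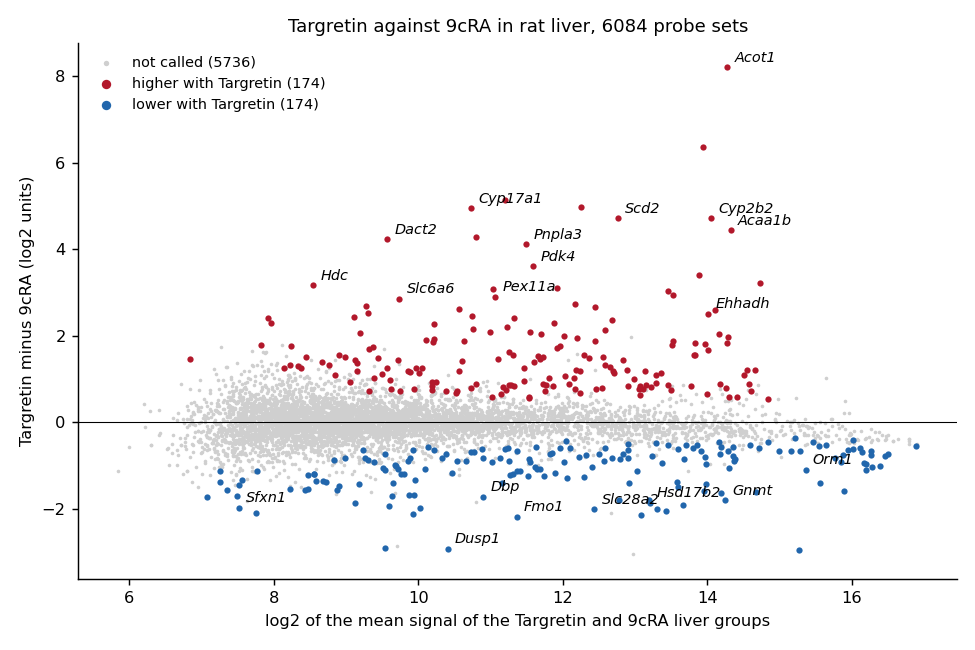
Targretin minus 9cRA in log2 units (vertical axis) against the log2 of the mean signal of both groups (horizontal axis), 1 point for each of 6084 probe sets; red points passed higher with Targretin, blue points passed lower and grey points did not pass. Acot1 lies at 8.21, and the red points reach farther from 0 than the blue ones.

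Against the livers on diet alone, which both comparisons share, 678 probe sets (11.1%) passed for Targretin and 314 (5.16%) for 9cRA. The count for Targretin was 420 without Targretin array 2. For 9cRA, leaving out diet array 1 gave 203, leaving out diet array 3 gave 207, and leaving out 4HPR array 4 gave 498. The median signal was 352 to 368 on the Targretin arrays and 323 to 374 on the 9cRA arrays.

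The levels on diet separated several patterns: genes raised by Targretin with no passing change under 9cRA, genes on opposite sides of the diet level, genes raised by 9cRA, and genes raised by both agents. Acot1, Scd2, Gnmt and Cyp2c22 are examples in that order. Acot1, which splits long-chain acyl-CoA in the cytosol, had signals of 28756, 46479 and 43435 on the Targretin arrays, 225, 31.8, 38.3 and 172 on the 9cRA arrays, and 32.0, 107.8, 77.1 and 85.9 on the diet arrays. All 3 Targretin livers were far above the other livers, and the 9cRA and diet livers overlapped at levels near the 10th percentile of the table. The difference between the agents was 8.21 ± 0.63 (limma adjusted p = 3.3e-07), and it was 7.25 with a pseudocount of 152. Its exact size is uncertain, since 9cRA arrays 2 and 3 lie near the pseudocount. The probe set of Acot1 may also read its close relatives, since its name marks it as shared by similar sequences.

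Scd2, a desaturase that makes monounsaturated fatty acids, had signals of 16873, 11910 and 11302 with Targretin, 574, 869, 326 and 275 with 9cRA, and 3801, 1279, 1717 and 1042 on diet. On this probe set, the one with the highest signal, the diet livers lay between the treated groups, with no overlap on either side. Targretin minus 9cRA was 4.72 ± 0.39 (adjusted p = 7.0e-07). Targretin minus diet was 2.91 (adjusted p = 9.0e-05) and 9cRA minus diet was -1.81 (adjusted p = 0.0081), and all 5 probe sets of Scd2 passed higher with Targretin than with 9cRA. The place of the diet livers was less uniform: 9cRA minus diet passed on 2 of the 5 probe sets, and was -1.50 (adjusted p = 0.095), -1.24 (adjusted p = 0.24) and 0.02 (adjusted p = 0.98) on the others.

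Gnmt, which uses up S-adenosylmethionine to methylate glycine, ran the other way. Its signals were 9346, 6838 and 9385 with Targretin, 23210, 36138, 35020 and 26613 with 9cRA, and 11685, 12309, 11969 and 10220 on diet. The 9cRA livers were the high group and did not overlap with the others. Targretin minus 9cRA was -1.81 ± 0.16 (adjusted p = 1.5e-06), while 9cRA minus diet was 1.37 (adjusted p = 0.00015) and Targretin minus diet was -0.45 (adjusted p = 0.094). All 3 probe sets of Gnmt passed lower with Targretin than with 9cRA.

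Cyp2c22, a cytochrome P450 of liver, had signals of 57671, 70717 and 68193 with Targretin, 55139, 53451, 60602 and 55389 with 9cRA, and 13413, 11985, 10930 and 10618 on diet. Both treated groups lay above the diet livers and overlapped with each other. It rose by 2.48 with Targretin and by 2.26 with 9cRA, and the difference between the agents was 0.22 (95% interval -0.03 to 0.47, adjusted p = 0.41). After quantile normalization the Cyp2c22 difference was 0.58 and passed (adjusted p = 0.0048).

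The stretches of 250 bases before the start of these 4 genes are printed because the response elements of RXR and its partners are built from the half-site AGGTCA, which reads TGACCT on the other strand. They come from RefSeq, build GRCr8, 5′ to 3′ in the direction of the gene, with any half-site in capitals: Acot1 from chr6:109367024-109367273 on the plus strand, Scd2 from chr1:253118127-253118376 on the plus strand, Gnmt from chr9:21752032-21752281 on the plus strand and Cyp2c22 from chr1:248980768-248981017 on the minus strand.
Acot1: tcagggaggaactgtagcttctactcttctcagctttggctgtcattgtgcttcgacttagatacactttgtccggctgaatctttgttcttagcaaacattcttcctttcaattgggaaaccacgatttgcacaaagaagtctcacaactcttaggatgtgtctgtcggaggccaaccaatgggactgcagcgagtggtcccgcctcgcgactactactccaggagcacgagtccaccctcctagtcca
Scd2: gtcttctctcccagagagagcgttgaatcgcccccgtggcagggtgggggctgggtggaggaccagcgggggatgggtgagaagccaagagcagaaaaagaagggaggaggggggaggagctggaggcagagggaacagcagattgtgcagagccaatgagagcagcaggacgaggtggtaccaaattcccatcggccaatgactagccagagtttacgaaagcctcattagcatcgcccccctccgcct
Gnmt: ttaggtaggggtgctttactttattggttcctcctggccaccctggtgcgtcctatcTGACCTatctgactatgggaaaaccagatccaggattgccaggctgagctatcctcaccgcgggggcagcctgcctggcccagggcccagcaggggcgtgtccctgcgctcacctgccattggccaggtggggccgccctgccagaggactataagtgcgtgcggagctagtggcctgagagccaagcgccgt
Cyp2c22: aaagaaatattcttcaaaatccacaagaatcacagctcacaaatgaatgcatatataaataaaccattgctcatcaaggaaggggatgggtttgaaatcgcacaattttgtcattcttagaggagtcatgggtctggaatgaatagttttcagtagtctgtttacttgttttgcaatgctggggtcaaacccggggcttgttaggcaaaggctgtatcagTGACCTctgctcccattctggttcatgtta
The windows of Gnmt and Cyp2c22 held 1 half-site each, and those of Acot1 and Scd2 held 0. A half-site on either strand was present in 4707 of 33469 windows of this length, or 14.1%. Windows were found for 95 of the 119 genes higher with Targretin, of which 19 (20.0%) held one, and for 89 of the 110 lower genes, of which 13 (14.6%) did; over the 2930 windows of the genes tested the share was 12.2%. A match of these letters is a description of the window and not a binding site.

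**Figure D2:**
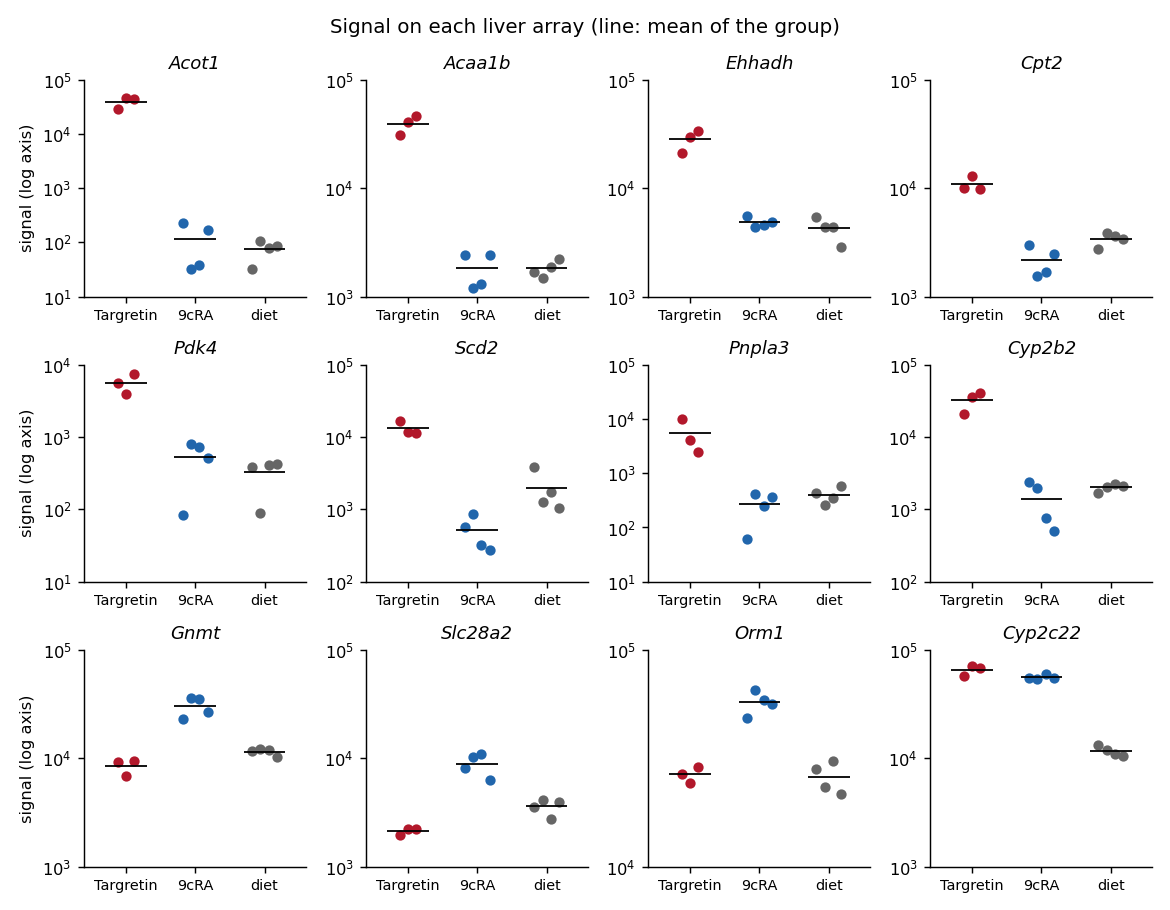
Signal (logarithmic axis) of 12 genes on the 3 Targretin, 4 9cRA and 4 diet liver arrays, 1 point per array with a line at the group mean. In the panels of Acot1, Acaa1b, Ehhadh, Cpt2, Pdk4, Scd2, Pnpla3 and Cyp2b2 the Targretin arrays stand above all others; in those of Gnmt, Slc28a2 and Orm1 the 9cRA arrays do; in that of Cyp2c22 both treated groups do.

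Of 23 genes tested for nuclear receptors and their partners, 2 were higher with Targretin, 1 was lower and 20 did not pass. The 13.0% that passed stand against 5.72% of all probe sets, with a median difference of 0.10 against a median of 0 over all probe sets. List shares here and below count 1 probe set per gene, the one with the highest mean signal. The 5.72% counts every tested probe set. With low signals filtered at the 60th percentile of an array, 372 of 4090 probe sets passed. Rxrg, the gamma form of RXR, had signals of 4825, 4864 and 3800 with Targretin and 2578, 2054, 2767 and 2444 with 9cRA, without overlap. It was higher with Targretin by 0.86 ± 0.16 (adjusted p = 0.0029), and 2 of its 3 probe sets passed. The other forms, Rxra and Rxrb, each gave -0.16 (adjusted p = 0.87 and 0.78), and the retinoic acid receptors Rara and Rarb gave 0.12 (adjusted p = 0.88) and 0.99 (adjusted p = 0.47).

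The partner receptors for lipids did not pass. Ppara gave 0.70 (95% interval -0.09 to 1.49, adjusted p = 0.39) and Ppard 0.12 (adjusted p = 0.81). The LXR genes Nr1h3 and Nr1h2 gave 0.01 (95% interval -0.26 to 0.27) and 0.10 (-0.23 to 0.43), and both changed sign under some alternatives. The thyroid hormone receptor Thra gave 0.23 (adjusted p = 0.83).

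Nr1h4, the gene of the bile acid receptor FXR, did pass. It had signals of 476, 539 and 629.8 with Targretin, 1286, 1436, 1599 and 1450 with 9cRA, and 885, 1681, 1428 and 971 on diet. The Targretin livers were lower than all 8 others, and Targretin minus 9cRA was -1.34 ± 0.21 (adjusted p = 0.00038). Nr0b2, the repressor SHP that FXR switches on, was higher with Targretin by 2.13 ± 0.22 (adjusted p = 6.2e-06), with signals of 10468, 11056 and 8483 against 2949, 2142, 1729 and 2327. Abcb11, the pump that exports bile salts into bile, was higher by 1.13 ± 0.16 (adjusted p = 0.00013), with signals of 14822, 13730 and 14534 against 7446, 6563, 5599 and 6624. The other 20 of 23 tested genes of bile acid synthesis and transport did not pass, so 13.0% passed against 5.72% of all probe sets. Nr1h4 and Nr0b2 are also counted among the passing nuclear receptor genes above, so these shares are not independent. Cyp7a1, the first enzyme of the classic route, named here after its value was seen, gave -0.45 (adjusted p = 0.76).

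Retinoid genes went both ways, with 3 of 14 higher with Targretin, 1 lower and a median difference of 0.10. In all 28.6% passed, against 5.72% of all probe sets. Without Targretin array 2 or without 9cRA array 2, 1 was higher. Aldh1a1, a dehydrogenase that makes retinoic acid from retinaldehyde, had signals of 9967, 12620 and 9351 with Targretin and 5391, 3956, 2940 and 3527 with 9cRA, and was higher with Targretin by 1.44 ± 0.22 (adjusted p = 0.0003). Rdh7, a retinol dehydrogenase, was lower by 1.09 on the log2 scale (difference -1.09 ± 0.18, adjusted p = 0.00063), with signals of 611, 869.5 and 589.6 against 1529, 1595, 1133 and 1756. Neither group overlapped with the other in these genes. Ugt2b1, a glucuronosyltransferase, was higher by 0.76 ± 0.19 (adjusted p = 0.023), a call lost in 5 of the fits that left out 1 array. Cyp26b1, which clears retinoic acid and is a target of RAR, did not pass: its signals were 499, 776 and 339.7 with Targretin, 234, 79.2, 386 and 86.7 with 9cRA, and 27.5, 130.4, 51.5 and 103 on diet. The treated groups overlapped, and the difference was 1.44 (95% interval 0.49 to 2.38, adjusted p = 0.075). It passed with the larger pseudocount of 152 (1.03, adjusted p = 0.049) and without 9cRA array 3 (1.79, adjusted p = 0.021). Against diet, Cyp26b1 was higher with Targretin by 2.34 (adjusted p = 0.0021), and 9cRA minus diet was 0.90 (adjusted p = 0.24).

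Many genes of fatty acid burning were higher with Targretin. In mitochondria, 12 of 25 tested genes were higher with Targretin, 0 were lower and 13 did not pass, and the median difference was 0.49. These 12 are 48.0%, against 5.72% of all probe sets. Cpt2, which rebuilds acyl-CoA inside the mitochondrion, had signals of 10065, 12811 and 9844 with Targretin, 2994, 1554, 1672 and 2469 with 9cRA, and 2751, 3892, 3634 and 3388 on diet. The Targretin livers stood above the rest, and the difference was 2.35 ± 0.21 (adjusted p = 1.4e-06). Eci1, the isomerase for unsaturated fatty acids, was higher by 1.80 ± 0.22, Acaa2, the thiolase, by 1.10 ± 0.17, and Acadm, the medium-chain dehydrogenase, by 0.83 ± 0.13 (adjusted p up to 0.00047). For Eci1, 2 of 3 probe sets passed. Cpt1a, which imports long-chain fatty acids and is named here after its value was seen, gave 0.41 ± 0.48 (adjusted p = 0.77).

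Of the kinases that hold back pyruvate oxidation, Pdk4 and Pdk2 were higher with Targretin; both are among the 12 genes counted for mitochondria. Pdk4 had signals of 5548, 3982 and 7377 with Targretin, 83.4, 793, 719.8 and 519 with 9cRA, and 382, 87.8, 417 and 430.1 on diet. Array 1 of 9cRA and array 2 of diet were the low ones in their groups, and all 9cRA and diet arrays were below the Targretin arrays. The difference was 3.60 ± 0.60 (adjusted p = 0.00087), and that of Pdk2 was 0.86 ± 0.14 (adjusted p = 0.00052). Pdk1, another of these kinases, named after its value was seen, gave 0.11 ± 0.22 (adjusted p = 0.88). Among the 37 tested genes of glucose and pyruvate use, which include the Pdk genes again, 3 were higher and 2 lower, with a median of 0.09. This is 13.5% in all, against 5.72% of all probe sets.

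In peroxisomes, 6 of 21 tested genes were higher with Targretin (28.6% against 5.72% of all probe sets), 0 were lower and 15 did not pass, with a median of 0.37. Acaa1b, the peroxisomal thiolase, had signals of 30703, 40727 and 45864 with Targretin, 2421, 1203, 1307 and 2401 with 9cRA, and 1686, 1498, 1876 and 2203 on diet. The 9cRA and diet livers shared one range, and the difference between the agents was 4.44 ± 0.31 (adjusted p = 8.7e-08). Ehhadh, the bifunctional enzyme of the same pathway, had signals of 20939, 29739.8 and 33674 against 5484, 4349, 4614 and 4869, a difference of 2.51 ± 0.24 (adjusted p = 2.2e-06). Pex11a, which divides peroxisomes, was higher by 2.90 ± 0.40 (adjusted p = 0.00015) on signals of 1433, 3961 and 6187 against 521, 449, 345 and 342. Ech1, a dienoyl-CoA isomerase, was higher by 1.33 ± 0.26 (adjusted p = 0.0037).

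Fatty acid uptake, activation, thioesterase and droplet genes included 11 higher with Targretin and 1 lower of 30 tested, with a median of 0.42. These counts stand against 5.72% of all probe sets that passed, higher and lower together. Cyp4a1, which hydroxylates fatty acids at their end, had signals of 26005, 34199.8 and 31999 with Targretin, 6809, 7727, 9041 and 11161 with 9cRA, and 9190.3, 9644, 9389.8 and 10779 on diet. The difference was 1.83 ± 0.19 (adjusted p = 5.8e-06), and its 3 probe sets all passed. Plin2, the coat protein of lipid droplets, rose against diet with both agents, by 2.41 with Targretin and 0.75 with 9cRA (adjusted p = 0.049, a call lost under 12 alternatives), and the agents differed by 1.66 ± 0.23 (adjusted p = 0.00014) on 1 of its 2 probe sets. Pnpla3, an enzyme of lipid droplets, had signals of 9915, 4034 and 2515 with Targretin against 61.1, 416, 254 and 365 with 9cRA, and differed by 4.12 ± 0.48 (adjusted p = 2.2e-05).

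Genes of lipogenesis and targets of LXR gave a median of 0.82, with 9 of 17 higher with Targretin, 0 lower and all 17 differences above 0, although that of Nr1h3 turned negative after quantile normalization. The 9 are 52.9%, against 5.72% of all probe sets, and the count was 5 without Targretin array 1. The lists share members: Pnpla3 is also counted among the droplet genes above, Dgat1 among the retinoid genes, and Acot2 both for mitochondria and among the thioesterases. Fasn, fatty acid synthase, had signals of 46056, 23962 and 26321 with Targretin, 9079.6, 7549, 6079 and 9076 with 9cRA, and 3526, 3635, 3695 and 4288 on diet. The 3 groups formed 3 separate ranges, with diet the lowest, and Targretin minus 9cRA was 1.97 ± 0.35 (adjusted p = 0.0018); 9cRA minus diet was 1.05 (adjusted p = 0.077). Me1, malic enzyme, which supplies reducing power, was higher with Targretin by 1.95 ± 0.25 (adjusted p = 7.4e-05), with 9cRA minus diet at -0.04. Between the agents, 4 of the 5 probe sets of Me1 passed. Srebf1, the regulator of these genes, named here after its value was seen, was higher by 1.53 ± 0.40 (adjusted p = 0.029), and 0.92 with an adjusted p of 0.19 without Targretin array 1. The call was also lost without any 1 of 9cRA arrays 1, 2 and 3 and with the 2 groups fitted alone.

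Scd, the main desaturase of liver and a close relative of Scd2, took another pattern. Its signals were 68226, 66589.7 and 68796 with Targretin, 33714, 36869, 21767 and 46083 with 9cRA, and 10143, 5955, 16240.3 and 8052 on diet. The groups formed 3 separate ranges, and Scd rose against diet with both agents, by 2.84 and 1.82. The agents differed by 1.02, with a 95% interval from 0.40 to 1.64 (adjusted p = 0.052); this value passed under 11 of the alternatives, and the other probe set of Scd passed. On the same arrays 9cRA minus diet was 1.82 for Scd and -1.81 for Scd2.

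Of 16 tested genes of cholesterol synthesis, 1 was higher with Targretin and 3 were lower, 25.0% in all against 5.72% of all probe sets, with a median of -0.06. Insig1, which restrains cholesterol synthesis, was higher by 1.56 ± 0.23 (adjusted p = 0.00023), with signals of 21272, 29134 and 15119 against 8101, 7065, 7812 and 5783. Msmo1, a sterol oxidase, was lower, with a difference of -1.38 ± 0.21 (adjusted p = 0.00029) on signals of 7092, 6924 and 6026 against 23455, 16634, 15731 and 15117. Idi1 and Sqle, an isomerase and an epoxidase of the same route, gave -1.29 ± 0.34 (adjusted p = 0.029) and -0.85 ± 0.23 (adjusted p = 0.038). Leaving out Targretin array 1 or 3, or 9cRA array 1, 2 or 3, each left 1 lower gene.

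**Figure D3:**
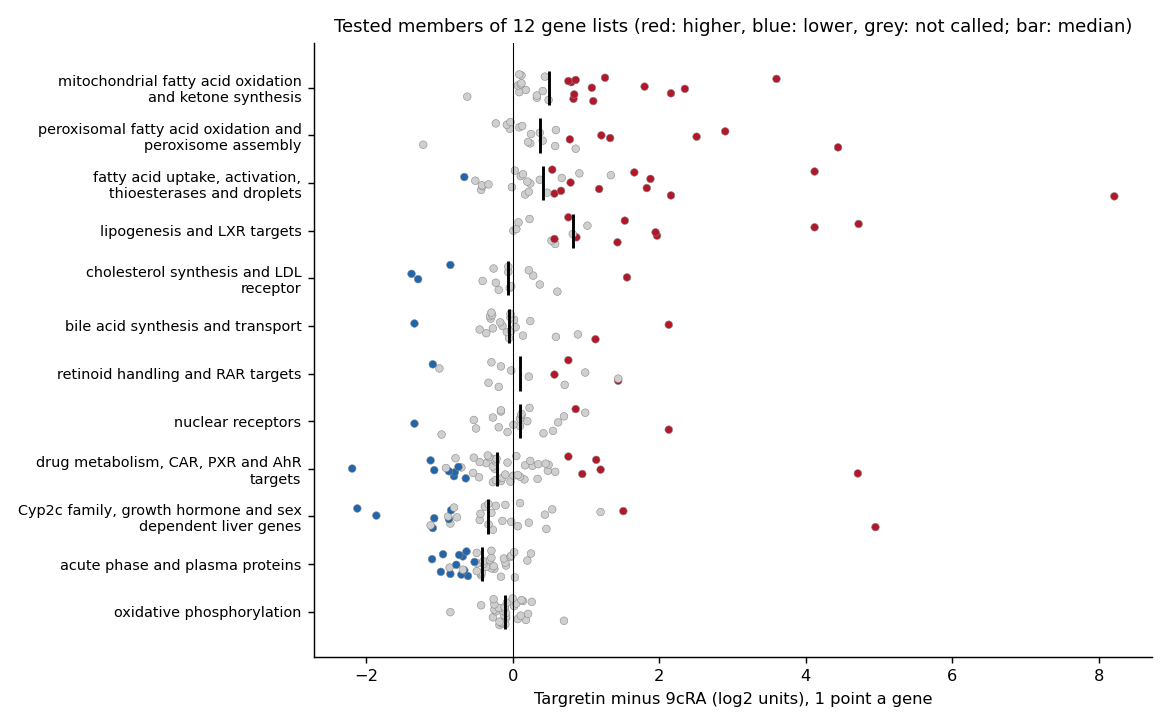
Targretin minus 9cRA in log2 units for the tested members of 12 gene lists, 1 point per gene (the probe set with the highest mean signal), red where higher with Targretin, blue where lower and grey where not passing; the black bar is the median. The medians run from 0.82 for lipogenesis and LXR targets to -0.42 for acute phase and plasma proteins.

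Drug metabolism genes went both ways. Of 50 tested, 5 were higher with Targretin and 8 lower, 26.0% in all against 5.72% of all probe sets, with a median of -0.22. Without Targretin array 3, 5 were lower. Cyp2b2, the classic target of CAR, had signals of 20970.3, 35822 and 41044 with Targretin, 2397, 1972, 755 and 499.5 with 9cRA, and 1703, 2059, 2258 and 2119.6 on diet. The difference was 4.71 ± 0.60 (adjusted p = 6.0e-05), both of its probe sets passed, and their names mark them as shared with related P450 genes. Ephx1, microsomal epoxide hydrolase, was higher with Targretin by 1.20 ± 0.20 (adjusted p = 0.00084): 9cRA minus diet was -0.68 (adjusted p = 0.041, a call lost under 10 alternatives) and Targretin minus diet was 0.52 (adjusted p = 0.11).

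On the lower side, Fmo1, a flavin monooxygenase, had signals of 777, 859.8 and 1127 with Targretin, 4702, 4745, 4527 and 3380.1 with 9cRA, and 3365, 4232, 3599.9 and 2277 on diet. The Targretin livers were below all others, and the difference was -2.19 ± 0.20 (adjusted p = 1.9e-06). In Cyp3a9, a P450 enzyme, the 9cRA livers were the high group. Its signals were 11459, 15041 and 12268 with Targretin, 28861, 30069.9, 29182 and 21049 with 9cRA, and 18471, 13994, 12482 and 14009 on diet. Targretin minus 9cRA was -1.07 ± 0.18 (adjusted p = 0.00086) and 9cRA minus diet was 0.89 (adjusted p = 0.0051).

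Of 31 tested genes of the Cyp2c family and of growth hormone and sex dependent expression, 2 were higher with Targretin, 6 were lower (25.8% in all against 5.72% of all probe sets) and 23 did not pass. The median was -0.33, and 22 of the 31 differences were below 0. Cyp17a1, which makes androgen precursors, had signals of 3513, 2239 and 4238 with Targretin, 59.6, 43.9, 79.8 and 90.9 with 9cRA, and 56.0, 275, 173 and 171 on diet. The difference was 4.95 ± 0.41 (adjusted p = 7.0e-07), and 3.94 with the larger pseudocount of 152. Hsd17b2, which inactivates estradiol and testosterone, was lower with Targretin, with a difference of -1.86 ± 0.23 (adjusted p = 5.0e-05) and signals of 3922, 3304 and 4427 against 19525, 9827, 10421 and 19937. Igfbp2, which binds insulin-like growth factors in plasma, rose with both agents, by 3.33 with Targretin and 1.82 with 9cRA, and the agents differed by 1.51 ± 0.25 (adjusted p = 0.00072). Of its 3 probe sets, 2 passed between the agents. The lower genes were Hsd17b2, Cyp3a9, which is also counted under drug metabolism, and 4 named after their values were seen. Onecut1, a liver transcription factor, gave -2.12 ± 0.57 (adjusted p = 0.036), and Cish, an inhibitor of growth hormone signalling, gave -1.09 ± 0.31 (adjusted p = 0.047). Cyp3a18, a P450 also counted under drug metabolism, gave -0.87 ± 0.22 (adjusted p = 0.026), and Igfbp3, a carrier of insulin-like growth factors, gave -0.84 ± 0.20 (adjusted p = 0.017) on 1 of its 2 probe sets. Their calls were lost under 5, 13, 4 and 4 alternatives in that order.

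Acute phase and plasma protein genes were lower with Targretin than with 9cRA in 12 of 39 cases and higher in 0. These 12 are 30.8%, against 5.72% of all probe sets, and the median was -0.42, with 35 of 39 differences below 0. Without Targretin array 1 the count was 6. Orm1, the acute phase protein orosomucoid, had signals of 26794, 24326 and 28935 with Targretin, 48379, 65523, 58965 and 56419 with 9cRA, and 28401, 23244, 30761 and 21564 on diet. The 9cRA livers were above both other groups, which overlapped, and Targretin minus 9cRA was -1.10 ± 0.15 (adjusted p = 0.00013). Serpina3c, a protease inhibitor, gave -0.95 ± 0.17, C4bpa, a regulator of complement, -0.98 ± 0.18, and Apcs, serum amyloid P, -0.85 ± 0.12 (adjusted p up to 0.0025). Against diet, 14 of the 39 were higher with 9cRA and 0 lower, while 0 were higher with Targretin and 3 lower. Over all probe sets, 5.16% passed against diet for 9cRA and 11.1% for Targretin, higher and lower together.

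Hepatocytes make most plasma proteins. Of 13 tested hepatocyte markers, 9 did not pass, 3 of them with differences above 0, and 0 were higher with Targretin than with 9cRA. The other 4 (30.8% against 5.72% of all probe sets) were lower, namely Cyp2e1 (-0.79), Tdo2 (-0.94), Serpina1 (-0.73) and Ahsg (-0.61). The last 2 are also on the plasma protein list and lost their calls under 7 and 14 alternatives, quantile normalization among them. Against diet, 2 of the 13 markers were higher with 9cRA and 3 lower, while 0 were higher with Targretin and 1 lower. The shares of all probe sets passing against diet were 5.16% for 9cRA and 11.1% for Targretin. The summed signal of the 13 was 480466 to 585635 on the Targretin arrays, 654192 to 801048 on the 9cRA arrays and 515124 to 598818 on the diet arrays. None of these markers was at 0 on any array. In bulk tissue a smaller share of cells of a type and less RNA per cell cannot be told apart, and the part of hepatocyte RNA in the plasma protein result was not tested.

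Amino acid genes also went both ways, with 3 higher and 3 lower of 44 (13.6% in all against 5.72% of all probe sets) and a median of 0.06. Beside Gnmt, Tdo2, which breaks down tryptophan, had signals of 7372, 5729 and 8809 with Targretin, 13585, 15762, 14024 and 12337 with 9cRA, and 25683, 25411, 24053 and 25647 on diet. The groups formed 3 separate ranges, and it fell with both agents, more with Targretin (difference between the agents -0.94 ± 0.14, adjusted p = 0.00032). Tdo2 is also counted among the hepatocyte markers above. Hal, which breaks down histidine, was higher with Targretin by 0.90 ± 0.18 (adjusted p = 0.005): it fell by 0.90 with 9cRA against diet, Targretin minus diet was 0.00, and 1 of its 3 probe sets passed. Hdc, which turns histidine into histamine, was higher with Targretin by 3.17 ± 0.47 (adjusted p = 0.00025), with signals of 357, 935 and 825 against 40.1, 28.3, 30.4 and 60.0, and by 2.09 with the larger pseudocount.

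Slc6a6, which takes up taurine, was higher with Targretin by 2.85 ± 0.58 (adjusted p = 0.0048), with signals of 1642, 1894 and 925 against 53.8, 380.3, 384 and 65.3. Slc28a2, which takes up purine nucleosides, was lower: its signals were 1952, 2210 and 2239 with Targretin, 8101, 10279.8, 11093 and 6373 with 9cRA, and 3565, 4109, 2779 and 3985 on diet. The difference was -2.02 ± 0.24 (adjusted p = 3.2e-05), with 9cRA minus diet at 1.29 (adjusted p = 0.0034) and Targretin minus diet at -0.73 (adjusted p = 0.060). Sfxn1, a mitochondrial serine carrier, was lower, with a difference of -1.98 ± 0.35 (adjusted p = 0.0015).

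Of genes that control growth and signalling, Ccnd1, the cyclin that starts the cell cycle, was higher with Targretin by 2.28 ± 0.22 (adjusted p = 3.2e-06), with signals of 6256, 6901 and 5567 against 2097, 994, 976 and 1206. Of its 5 probe sets, 3 passed. It was the only 1 of 20 tested cell cycle genes to pass, which is 5.0% against 5.72% of all probe sets. Dact2, an inhibitor of Wnt and Nodal signalling, was higher by 4.23 ± 0.37 (adjusted p = 1.3e-06), on signals of 1691, 1622 and 1120.1 against 42.0, 35.9, 57.2 and 32.0, and by 3.05 with the larger pseudocount. Dusp1, a phosphatase that ends stress kinase signals, was lower: its signals were 168, 181 and 644 with Targretin, 2035, 1992, 2458 and 3043 with 9cRA, and 1411, 984, 1341 and 1180.1 on diet. The difference was -2.93 ± 0.44 (adjusted p = 0.00034), and all 3 of its probe sets passed.

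The clock output gene Dbp was lower with Targretin, with a difference of -1.73 ± 0.31 (adjusted p = 0.0019) on signals of 949, 485 and 1094 against 4228, 1754, 1842 and 4065. It was the 1 of 9 tested clock genes to pass, 11.1% against 5.72% of all probe sets. All 9 differences were below 0, with a median of -0.50. The labels give no time of day for the collection. Dio1, which activates thyroid hormone, was lower on both of its probe sets, with a difference of -1.72 ± 0.44 on the more responsive of them (adjusted p = 0.027) that lost its call in 3 of the fits without 1 array.

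**Figure D4:**
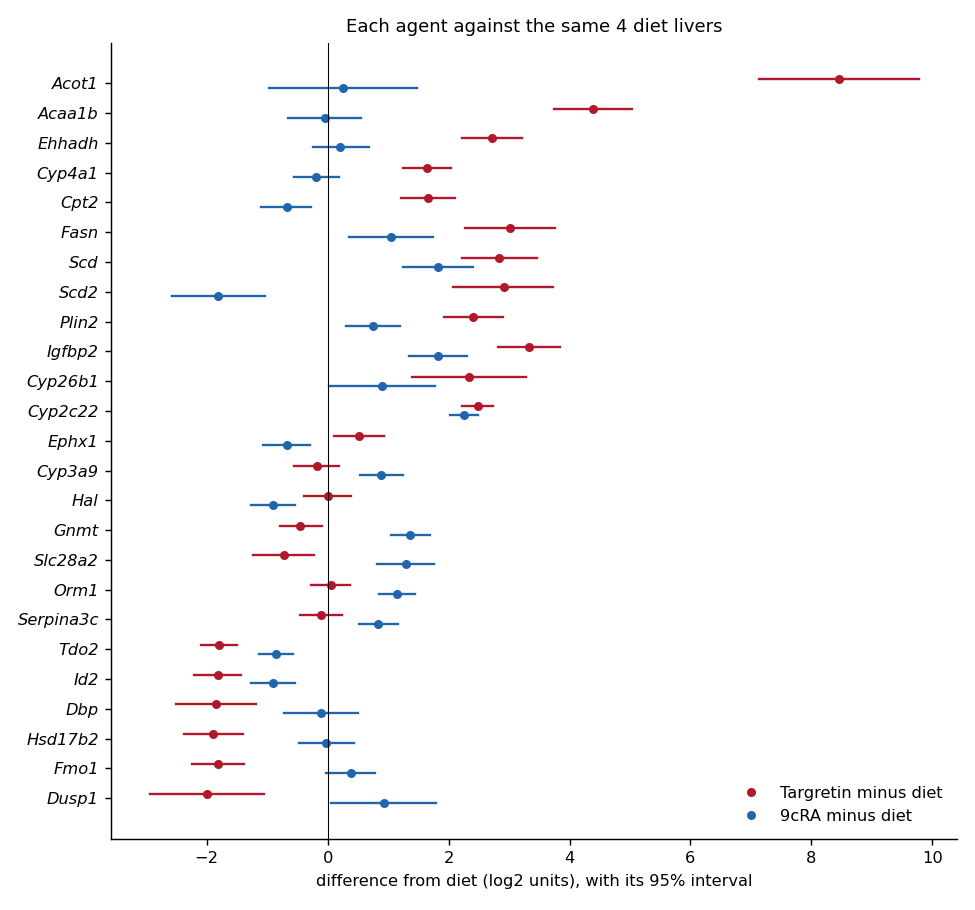
Difference from the 4 diet livers in log2 units with its 95% interval, for Targretin (red) and 9cRA (blue), in 25 genes. Scd2 lies at 2.91 with Targretin and at -1.81 with 9cRA, Cyp2c22 at 2.48 and 2.26, and Tdo2 at -1.80 and -0.86; both sets of differences share the diet arrays.

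A further set of genes changed with both agents. Among probe sets with 1 gene symbol, 134 passed against diet for both agents, a count that rests on shared diet arrays. Over all 6084 probe sets, 678 (11.1%) passed for Targretin and 314 (5.16%) for 9cRA. In 51 of the 134, from 51 genes, the 95% interval of Targretin minus 9cRA lay within 1.5-fold either way. The share of all tested probe sets with such an interval was not counted. Beside Cyp2c22, Cltc, the clathrin heavy chain, fell by 0.80 with Targretin and by 0.70 with 9cRA, and the difference between the agents was -0.11 (95% interval -0.39 to 0.18). Hacd3, which works in fatty acid elongation, fell by 0.96 and by 0.71, with a difference of -0.25 (-0.55 to 0.04). Slc22a7, an organic anion transporter, rose by 0.53 and by 0.51, with a difference of 0.02 (-0.25 to 0.30). The rise with Targretin lost its call without Targretin array 2, that with 9cRA without diet array 1 or 2, and neither passed on the other probe set. Its signals were 4765, 6206 and 5439.7 with Targretin, 5454, 5282, 5333 and 5361 with 9cRA, and 3362, 3715, 3950.2 and 4064 on diet.

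Id2, an inhibitor of differentiation, fell with both agents but further with Targretin, by 1.82 against 0.90, and the agents differed by -0.92 ± 0.19 (adjusted p = 0.0046). Cd74, the chain that guides class II molecules in antigen presenting cells, fell by 1.51 with Targretin and by 0.96 with 9cRA, and the agents did not pass against each other (-0.55, 95% interval -1.02 to -0.07, adjusted p = 0.21). Of 14 tested macrophage and antigen presenting markers, 11 gave differences below 0, with a median of -0.21. Among them 0 passed lower and 1 passed higher with Targretin than with 9cRA, 7.14% of the 14 against 5.72% of all probe sets. That gene, Clec4f of Kupffer cells, gave 0.68 (adjusted p = 0.047) and lost its call under 15 alternatives. Of 13 tested markers of stellate cells, 7 of endothelium, 7 of bile duct cells and 10 of lymphocytes, 0 passed. The same held for 3 of neutrophils and mast cells, 4 of red cells, and 5 of fat and muscle. Summed signals of the red cell markers did not overlap, at 28730 to 56412 with Targretin and 61729 to 73992 with 9cRA. Those of the bile duct markers were 18153 to 20265 and 16171 to 17149, also without overlap. In the other lists of this paragraph the sums overlapped. Whether the cell content differed was not tested.

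Lung markers were detected in some livers. Sftpc, a surfactant protein of lung, had signals of 271, 108.9 and 2513 on the Targretin liver arrays, 6139, 1298, 347 and 499 on the 9cRA liver arrays and 1022, 358, 191 and 567 on the diet liver arrays, against 89337 to 166610.1 in the Targretin and 9cRA lungs. Over 6 lung epithelial markers the summed signal was 1538 to 5536 with Targretin and 2234 to 10908 with 9cRA in liver, and 240982 to 379079 in the lungs of these groups; none was at 0. None of the 6 passed between the agents, all 6 differences were below 0, and the median was -0.71. Albumin, in turn, had signals of 39.0 to 41.1 in Targretin lungs and 1278 to 3266 in 9cRA lungs, and of 801 to 4322 in Targretin mammary glands and 9456 to 31170 in 9cRA mammary glands.

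The difference between the agents depended on the organ for some of these genes. In 1 fit of all 43 arrays, 75 of 5120 probe sets (1.46%) differed between liver and lung in Targretin minus 9cRA, and 170 (3.32%) between liver and mammary gland. The fit treats organs with the same replicate number as independent, and the labels do not say whether a number marks 1 rat. Except for Gnmt, the genes given here and below were picked by the smallest p-values of these organ differences. Their passing is therefore not separate support. Cpt2 gave 2.35 in liver, -0.18 in lung and -0.13 in the mammary gland, differences between organs of 2.53 ± 0.31 (adjusted p = 1.0e-06) and 2.48 ± 0.31 (adjusted p = 1.5e-06). Cyp2b2 gave 4.71 in liver and -0.01 in lung, where its probe set read 22485 to 34739.8 with Targretin and 26604 to 32509.8 with 9cRA, a difference between organs of 4.72 ± 0.66 (adjusted p = 9.3e-06). Scd2 gave 0.44 in lung and 1.05 in mammary gland, and differed by 4.28 ± 0.58 and 3.67 ± 0.58 (adjusted p = 5.9e-06 and 8.0e-05).

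Atp1b1, a subunit of the sodium pump, was higher with Targretin in liver by 2.03 ± 0.20, on signals of 5147, 4837 and 6071 against 1394, 1676, 1149 and 972, and gave -0.37 in lung and -0.30 in mammary gland, differences between organs of 2.41 and 2.34 (adjusted p = 2.2e-06 and 2.7e-06). Fmo1 gave 0.51 in lung and -0.31 in mammary gland, and differed by -2.71 ± 0.33 and -1.88 ± 0.33 (adjusted p = 1.0e-06 and 0.00035). Dact2 was higher with Targretin in mammary gland as well, by 1.13 ± 0.29 (adjusted p = 0.014), but less than in liver by 3.10 ± 0.40 (adjusted p = 2.0e-06). Acot1 gave 2.18 in lung (adjusted p = 0.14) and -1.75 in mammary gland (adjusted p = 0.18), and Gnmt 0.39 and -0.24. The albumin values above differ between the agents in lung and mammary gland, and the part of liver RNA in the values of Acot1, Cyp2b2 and Gnmt there was not tested.

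**Figure D5:**
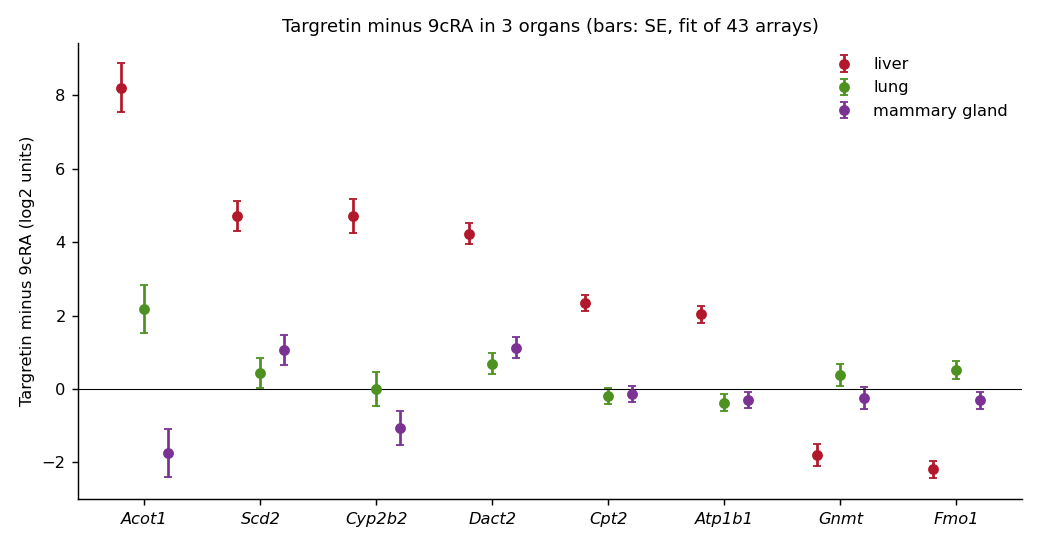
Targretin minus 9cRA in log2 units for 8 genes, with red for liver, green for lung and purple for the mammary gland; bars are standard errors from 1 fit of 43 arrays. The liver values of Acot1, Scd2, Cyp2b2, Dact2, Cpt2 and Atp1b1 lie above those of the other organs, and those of Gnmt and Fmo1 below.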

How the data were processed

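RNA of 43 samples was read on Affymetrix rat arrays, 1 per sample. The authors deposited MAS5 signals, linear intensity values, as the labels state. Their 2% trimmed mean was 1501.8 to 1503.3 on every array, so no further scaling was applied. Of 8799 probe sets, 59 controls were left out. Genes were named from the platform annotation: 7018 probe sets had 1 symbol, 308 several and 1473 none. A pseudocount of 38.1 was added before log2, and probe sets above the 40th percentile of an array on at least 3 of the 15 liver arrays were tested with limma 3.58.1 in R 4.3.3 (lmFit, eBayes with trend) on all 4 liver groups with Benjamini-Hochberg adjustment; the organ fit used all 43 arrays, with organs of the same replicate number as independent samples. Gene lists took 1 probe set per gene, the one with the highest mean signal in liver. Named genes were the largest differences, the smallest p-values of each list, the receptors and the genes with the narrowest intervals among those changed by both agents. Genes with the smallest p-values of the organ differences were also named. Exceptions are stated. The comparison, the lists and the rule were chosen with earlier results of these data known. The procedure was tested on simulated data.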

Additional observations from a re-analysis of the deposited data

Results flagged for a closer look

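In groups of 4 arrays, 13 of 162 sets of values held an array far from the other 3, where chance gives about 5%. In the 9cRA livers these were array 4 for Fmo1 (3380.1), Cyp3a9 (21049.4), Ppara (325.1), Serpina1 (140947.2) and Ahsg (101433.0), array 1 for Ugt2b1 (8032.7) and array 2 for Igfbp3 (1636.4). In the diet livers they were array 2 for Pdk4 (87.8), Rxrb (554.9) and Hdc (152.9), array 1 for Rara (7047.7), and array 3 for Ppard (1304.7) and Tdo2 (24053.1).

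The difference between the agents was not the same across organs for 8 genes named in the text, by limma's test of the difference itself. All of them but Gnmt were picked by the smallest p-values of this same test, so their passing is not separate support. Liver minus lung was 6.02 for Acot1, 2.53 for Cpt2, 4.28 for Scd2, 4.72 for Cyp2b2, 3.55 for Dact2, 2.41 for Atp1b1, -2.71 for Fmo1 and -2.21 for Gnmt. Liver minus mammary gland was 9.96 for Acot1, 2.48 for Cpt2, 3.67 for Scd2, 5.78 for Cyp2b2, 3.10 for Dact2, 2.34 for Atp1b1, -1.88 for Fmo1 and -1.58 for Gnmt. The last lost its call without any 1 of 5 arrays: Targretin liver 2, 9cRA liver 2 or 3, Targretin mammary gland 3 or 9cRA mammary gland 2.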

How the results depend on the processing

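Of 130 single gene results, 104 kept their direction and their side of the threshold under every alternative run. The count of probe sets differing between Targretin and 9cRA was 348. It was 292 to 433 under the alternatives that kept all arrays of both groups. Fits without 1 array gave 237 to 432, with 125 to 204 higher and 112 to 228 lower. For Targretin minus diet, fits without 1 array gave 420 to 889; for 9cRA minus diet they gave 203 to 498, and array quality weights gave 483. With the replicate number as a block, 292 probe sets passed, 281 of them among the 348. The same-numbered Targretin and 9cRA liver arrays had residual correlations of 0.0129, -0.0923 and -0.0133. These are too few values to tell whether a number marks a shared batch. Within an agent, liver and lung arrays of the same number had a median residual correlation of 0.115, against -0.0254 for other numbers. For liver and mammary gland these medians were 0.0429 and -0.0197. What a number marks was not tested. After quantile normalization, 320 of the 348 passed and 1, a probe set with no gene symbol, took the opposite sign. Chosen after the data were seen, a fit with arrays of 1 agent and number in different organs as a random block (replicate block across organs, consensus correlation 0.0732) gave 96 probe sets for liver minus lung and 203 for liver minus mammary gland, and all 8 genes named there passed in both. Values near 0 changed sign: Nr1h3 was -0.049 after quantile normalization and -0.042 to 0.074 in fits without 1 array, Slc22a7 was -0.015 after quantile normalization and -0.073 to 0.12 without 1 array, and Nr1h2 was -0.015 to 0.23 without 1 array. The cause of these changes was not tested. Signals near the pseudocount limit the size of differences such as those of Acot1, Cyp17a1, Dact2 and Hdc.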
